A study of Sus scrofa with 12 samples.

Results

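Nutrient transporters of the solute carrier (SLC) families were followed in the uterus of newborn gilts (young female pigs). They were taken as the genes whose symbol in the deposited table was SLC1A, SLC2A, SLC3A, SLC5A, SLC6A, SLC7A, SLC16A, SLC27A, SLC36A, SLC38A or SLC43A followed by a number. The rule matched 51 of the 20390 genes of the table, from all of these families except SLC43A. A gene was tested if its value exceeded 1, the lowest value in the table, in at least 4 of 12 libraries, and 47 of the 51 transporters and 16862 genes in all met this. The choice of genes used no difference between groups.

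There were 3 groups of 4 gilts, with 1 RNA library per gilt. In PND2N, gilts nursed freely for 48 h and their uteri were taken at 50 h of age. The PND2R gilts drank a commercial milk replacer for 48 h and were also sampled at 50 h. The PND0 gilts were sampled on postnatal day 0, less than 1 h old, and had not nursed. All were crosses of the Landrace, Yorkshire, Duroc and Hampshire breeds, and no genetic change or drug was part of the design. Uteri were trimmed of connective tissue and used whole, so a value is an average over epithelium, stroma, muscle and other cells. In such tissue, fewer cells of a type and less RNA per cell cannot be told apart.

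SLC proteins carry nutrients across membranes along or against their gradients, and each family has its own substrates. Most SLC2A proteins let hexoses pass down their gradient, whereas SLC5A and many amino acid carriers use the sodium gradient that the sodium pump keeps up. Other amino acid carriers exchange one amino acid for another, some as a light chain bound to an SLC3A heavy chain. Some SLC16A proteins move lactate and related acids together with protons, and SLC27A proteins take up long-chain fatty acids and join them to coenzyme A. At birth a piglet changes from a steady supply through the placenta to colostrum and milk, in which fat is a main fuel. In the adult uterus these families supply endometrial cells and load the uterine fluid that feeds an early embryo.

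Values are normalized, linear and without a unit, with totals of 26534074 to 29544130 per library, and the read depth is unknown. They are not divided by gene length, so levels are compared between libraries, and a ratio of 2 entries only from library to library. Between 17.8% and 22.1% of genes stood at 1 in a library, and there a gene was not detectable rather than absent. In the labelled tissue, the uterine homeobox genes HOXA10 and HOXA11 stood at 3468 to 8409 and 3827 to 8542. ESR1, also looked up, stood at 1035 to 7785 in its higher entry and 64.02 to 184.6 in its lower one. PGR ranged from 14.1 to 408.4. PND2N 1, PND2R 2 and PND2R 3 stood apart from the other 9 libraries along the first principal component (58.5% of the variance). Their summed smooth muscle markers (7 of 9 genes matched) were 295833, 245678 and 227874, against 120350 to 201088 in the other libraries. An entry of MYLK in this list ran the other way, at 930, 1366 and 792, against 3182 to 14121. Summed stroma markers (7 of 8 matched) were 284811, 312865 and 246486 in the 3 libraries, against 346414 to 547206. Genes at 1 made up 22.1%, 21.9% and 21.3% in them, against 17.8% to 20.4% in the others. Summed epithelial markers (9 of 11 matched) were 29632 and 22799 in PND0 3 and PND0 4, against 102892 and 107727 in PND0 1 and PND0 2. Of the 60 cell type markers matched, 1 stood at 1 in all 12 libraries, the adipocyte hormone ADIPOQ. Litter, date and batch are not in the labels. The part of these differences in the results was not tested, and calls of named genes that were lost without the 3 libraries are given as such.

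Against birth, the transporters that changed all fell, and they were few. In nursed gilts 1 of 47 fell (2.13%), where 3.32% of all genes tested changed and 1.41% fell. It was SLC16A3, a lactate exporter. In replacer-fed gilts 4 of 47 fell (8.51%), where 15.0% of all genes changed and 7.31% fell: SLC16A3, the vesicle amino acid carrier SLC6A17, the inositol carrier SLC2A13 and the glutamine carrier SLC1A5. With both day 2 groups averaged against birth, 4 of 47 fell (8.51%), where 18.1% of all genes changed and 8.49% fell. These were SLC16A3, SLC6A17, SLC2A13 and SLC5A3, a second inositol carrier. No transporter rose in any of the comparisons, where 1.91%, 7.7% and 9.57% of all genes rose. The shares of transporters called were below those of all genes, and the shares that fell were near those of all genes. A call here is an adjusted p under 0.05 in limma, a linear model fitted to log2(value + 1) of all genes, with Benjamini-Hochberg adjustment over the 16862 genes. The F test over the 3 groups called SLC16A3 alone among the 47 (2.13%), where 6.43% of all genes passed.

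At an unadjusted p under 0.05 the transporters numbered 8 of 47 in PND2N against PND0, where 23.9% of all genes had such a p. In PND2R against PND0 they numbered 10 (21.3%, where the share of all genes was 37.0%). In the average of day 2 against PND0 they numbered 15 (31.9%, where the share of all genes was 37.8%), 13 of them lower on day 2 (27.7%, where 20.1% of all genes had such a p and were lower). The libraries did not overlap in 6 of 47 transporters for PND2N and PND0 (12.8%, where the share of all genes was 16.0%), in 10 for PND2R and PND0 (21.3%, where it was 28.3%) and in 4 for day 2 and PND0 (8.51%, where it was 13.3%). The median log2 change over the 47 was -0.21 in PND2N and -0.37 in PND2R, each against PND0. The median over all genes tested was -0.04 in PND2N and -0.06 in PND2R. Both comparisons use the same PND0 libraries, so the lean towards lower values in each is not 2 separate observations.

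**Figure D1:**
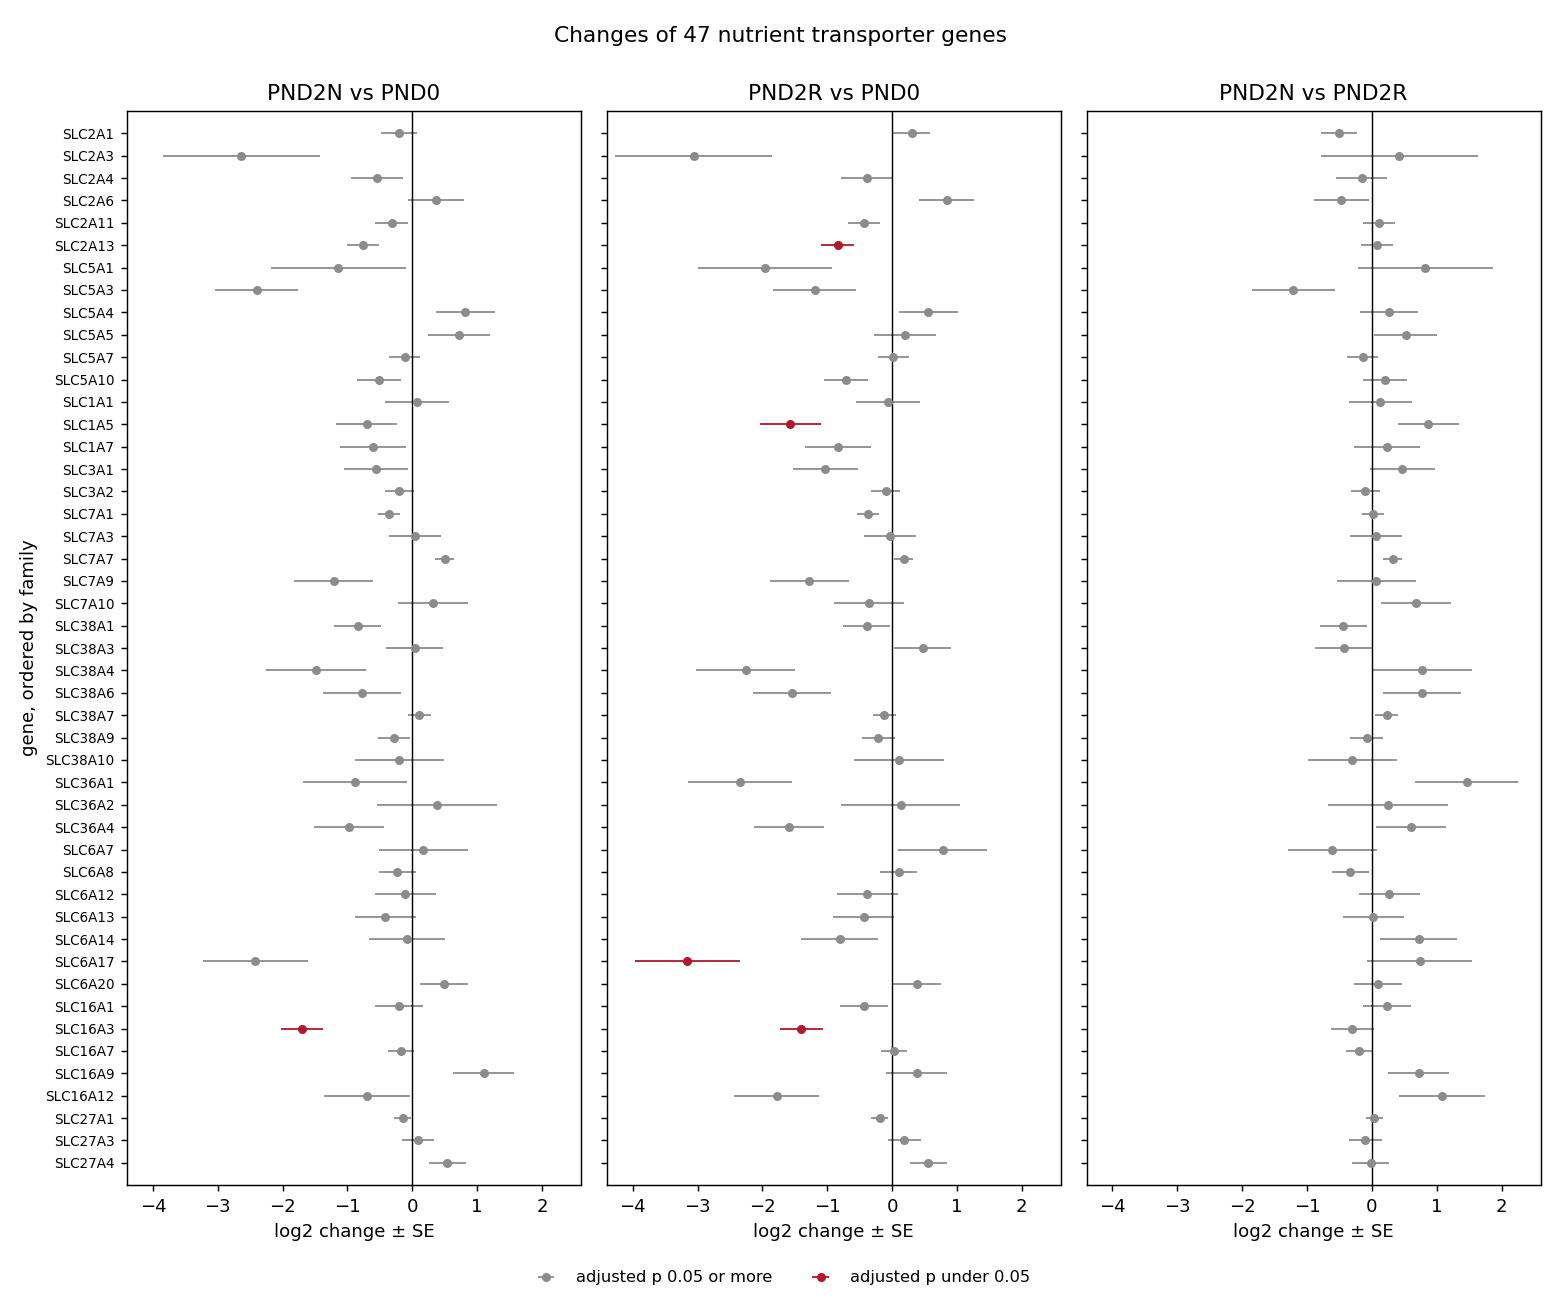
Log2 change ± SE of the 47 transporters in PND2N against PND0, PND2R against PND0 and PND2N against PND2R, ordered by family, from the limma fit on log2(value + 1). Red points have an adjusted p under 0.05. SLC16A3 is red in both comparisons with PND0, SLC2A13, SLC1A5 and SLC6A17 only in that of PND2R, and no point is red in PND2N against PND2R.

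Among the SLC16A genes 1 of 5 fell, and it was the one transporter called in each comparison with birth. SLC16A3 (MCT4; chromosome 12, 1008143 to 1011131 on Sscrofa10.2) exports lactate from cells that rely on glycolysis. It stood at 545, 260.0, 339 and 355 in PND2N, 469, 354, 523 and 447 in PND2R and 1070.3, 2381, 915 and 811 in PND0. Each of the 8 day 2 libraries was below each PND0 library, and PND0 2 was the highest of the newborns. Means were 375 ± 121 in PND2N, 448 ± 70.8 in PND2R and 1295 ± 732 in PND0 (SD, n = 4 each). The log2 change was -1.70 ± 0.33 in PND2N (limma, adjusted p = 0.0266), -1.40 ± 0.33 in PND2R (adjusted p = 0.0224) and -1.55 ± 0.29 for day 2 as a whole (adjusted p = 0.00783). The day 2 value fell to 0.342 times that of birth on this scale. The call for day 2 held in all 12 fits that each left out 1 library and in all 8 other settings tried, at log2 changes of -1.73 to -1.21. The PND2N call was lost without PND2N 2, PND2N 4, PND0 1 or PND0 4, and the PND2R call without PND2R 2 or PND2R 3, at adjusted p of at most 0.0928 and 0.0718. Without the 3 libraries the PND2R change was -1.36 and its call was lost (adjusted p = 0.0989), while the PND2N call held (adjusted p = 0.0382).

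None of the other SLC16A genes passed. SLC16A1 (MCT1), which carries lactate in either direction, stood at 4306, 5333, 4332 and 3644 in PND2N, 3196, 4609, 3752 and 3464 in PND2R and 2275, 3850.1, 11008 and 6579 in PND0. The day 2 libraries lay inside the range of the newborns, whose highest value was 4.84 times the lowest. SLC16A9 (MCT9) stood at 99.9, 81.7, 86.8 and 76.5 in PND2N, 46.9, 93.9, 43.8 and 36.3 in PND2R and 63.8, 34.4, 15.4 and 69.9 in PND0. All PND2N libraries were above all PND0 libraries, with a log2 change of 1.10 ± 0.47 that did not pass (adjusted p = 0.178). SLC16A12 (MCT12), known as a creatine carrier, stood at 2.98, 6.78, 11.4 and 7.53 in PND2N, 3.68, 1.77, 3.36 and 1.91 in PND2R and 3.75, 4.21, 40.4 and 21.3 in PND0. The PND0 mean of 17.4 ± 17.4 dropped to 9.76 without PND0 3, and the change in PND2R, -1.78 ± 0.66, did not pass (adjusted p = 0.0777). SLC16A7 (MCT2), singled out after its values were seen, varied little, with a highest value 1.55 times the lowest over the 12 libraries.

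**Figure D2:**
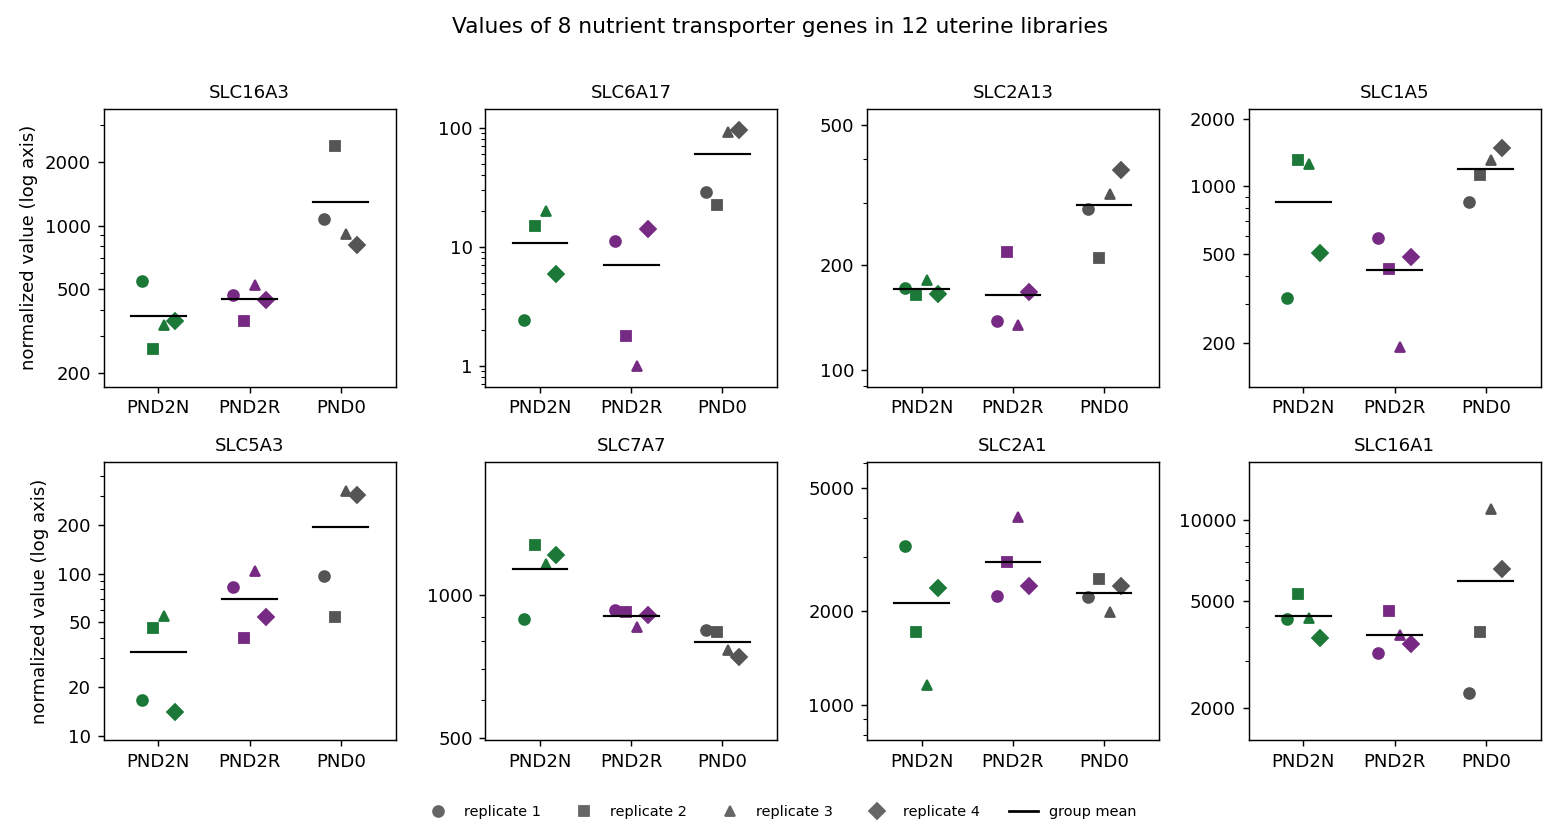
Normalized value per library (log axis) of 8 transporters in PND2N, PND2R and PND0, 4 libraries each, with a marker shape per replicate number and a bar at the group mean. The numbers only name libraries. The 8 day 2 libraries of SLC16A3 and of SLC6A17 lie below all 4 PND0 libraries, and those of SLC7A7 lie above them.

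In the SLC2A family 6 of 8 genes were tested, and 1 fell. SLC2A13 (chromosome 5, 72521106 to 72938994) carries myo-inositol with protons rather than glucose. It stood at 172, 165, 181 and 165 in PND2N, 138, 217, 135 and 168 in PND2R and 288, 208, 318 and 372 in PND0. The PND2N values were close together and below every newborn, whereas PND2R 2 overlapped PND0 2. The log2 change was -0.84 ± 0.25 in PND2R (limma, adjusted p = 0.0426) and -0.80 ± 0.22 for day 2 (adjusted p = 0.0277). In PND2N it was -0.76 ± 0.25 (adjusted p = 0.101), and that the comparisons differ was not shown: PND2N against PND2R gave 0.08 ± 0.25. The PND2R call held in 3 of the 12 fits that left out 1 library and was lost without the 3 libraries that stood apart (adjusted p = 0.111). The day 2 call held in 7 of 12 and without the 3 (adjusted p = 0.0449).

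Neither GLUT1 nor GLUT3 passed under its own symbol. SLC2A1 (GLUT1), the carrier of basal glucose uptake, stood at 3239, 1716, 1157 and 2383 in PND2N, 2241, 2877, 4028 and 2416 in PND2R and 2221, 2541, 1993 and 2419 in PND0. The newborns lay within a narrow range, and the 3 highest of the 12 libraries were PND2R 3, PND2N 1 and PND2R 2. SLC2A3 (GLUT3), a high-affinity glucose carrier, stood at 2.42, 139.5, 145 and 50.6 in PND2N, 135, 7.08, 9.17 and 99.2 in PND2R and 169, 222, 395 and 358 in PND0. All day 2 values were below all newborn ones, but PND2N 1, PND2R 2 and PND2R 3 lay far below the other day 2 libraries. Its log2 change was -2.64 ± 1.21 in PND2N and -3.06 ± 1.21 in PND2R, which did not pass (adjusted p = 0.208 and 0.0942). Without the 3 libraries it was -1.41 in PND2N and -1.21 in PND2R, also short of the threshold. SLC2A4 (GLUT4), the insulin-regulated carrier of muscle and fat, was low at 8.72 ± 4.12 in PND2N, 9.50 ± 2.68 in PND2R and 13.3 ± 6.27 in PND0. SLC2A6, described as a lysosomal hexose carrier in mouse, stood at 82.6 ± 48.0 in PND2N, 107 ± 32.0 in PND2R and 60.7 ± 23.7 in PND0 and was highest in PND2N 1, PND2R 2 and PND2R 3. SLC2A2 (GLUT2), the carrier of liver and beta cells, was at 1 in all 12 libraries, and SLC2A7 exceeded 1 in 3.

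GLUT1 and GLUT3 were each split over neighbouring entries of the table, and the entries did not move together. LOC100620120, described there as similar to GLUT1, lies on the same strand of chromosome 6 (155811418 to 155816893) as SLC2A1 (155890224 to 155901451). It stood at 143, 416, 359 and 280.4 in PND2N, 385, 176, 119.8 and 295 in PND2R and 845, 972, 713 and 952 in PND0. All 8 day 2 libraries were below all newborns. It fell by 1.63 on the log2 scale in PND2N (SE 0.40, limma adjusted p = 0.047), by 1.96 in PND2R (adjusted p = 0.0133) and by 1.80 for day 2 (adjusted p = 0.00852). All 3 calls held without the 3 libraries, the PND2N one in 3 of the 12 fits that left out 1 library, the others in all 12. LOC100626468, described as similar to GLUT3 and given the symbol SLC2A3 in a later gene table, directly precedes SLC2A3 on its strand of chromosome 5 (64195990 to 64201126 for SLC2A3 and 64202107 to 64207540 for the similar entry). It stood at 3782, 3059.9, 2152 and 2846 in PND2N, 3036, 3699, 3061 and 2982 in PND2R and 2426, 4007, 5667 and 5043 in PND0. The ratio of the similar entry to SLC2A3 was 1560, 522 and 334 in PND2N 1, PND2R 2 and PND2R 3 and 14.1 to 56.3 in the other 9 libraries. How the authors assigned reads between such entries is not given in the sources used here, so values of GLUT1 and GLUT3 under either entry are uncertain.

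**Figure D3:**
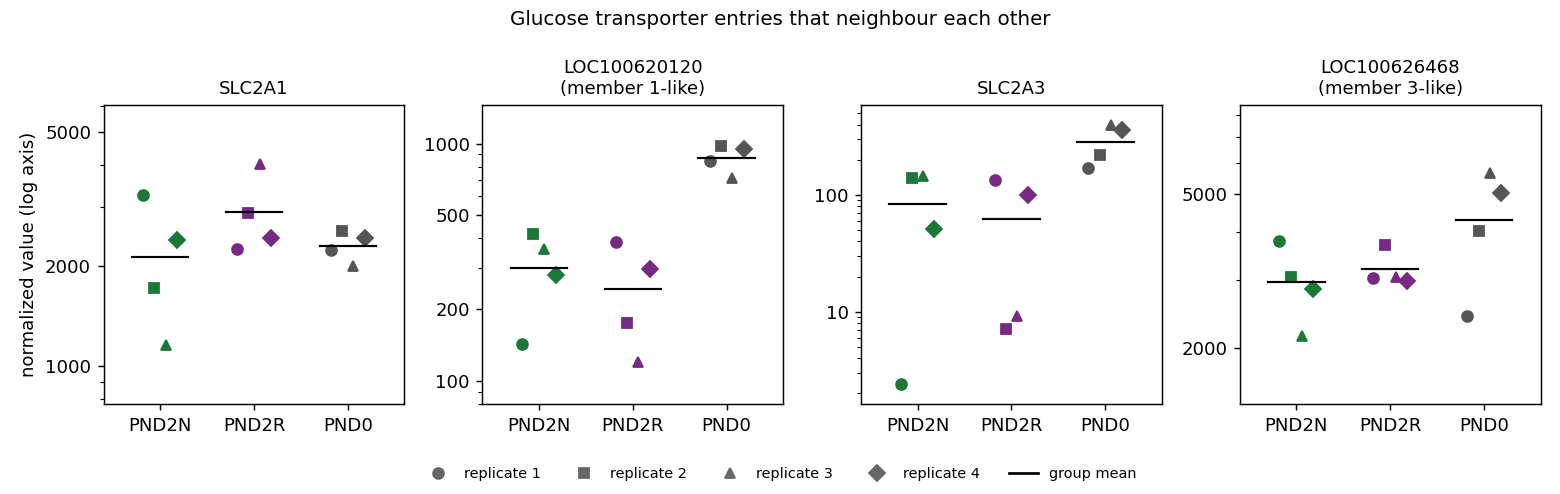
Normalized value per library (log axis) of SLC2A1 and SLC2A3 and of the neighbouring entries described as similar to them, by group, with a bar at the group mean. LOC100620120 is lower in all day 2 libraries than in all PND0 libraries while SLC2A1 overlaps, and SLC2A3 is lowest in 3 day 2 libraries, at 2.42, 7.08 and 9.17. In these LOC100626468 stands at 3782, 3699 and 3061, against 2152 to 3060 in the other day 2 libraries.

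Of the sodium-coupled SLC5A family 6 of 7 genes were tested, and 1 fell. SLC5A3 (chromosome 13, 202162007 to 202164163), a sodium and myo-inositol carrier that cells use to balance osmotic stress, stood at 16.5, 46.0, 54.4 and 14.1 in PND2N, 82.6, 40.2, 103 and 54.0 in PND2R and 96.0, 54.0, 325 and 305 in PND0. PND0 3 and PND0 4 were far above all other libraries, and PND0 1 and PND0 2 lay within the day 2 range. For day 2 the log2 change was -1.79 ± 0.55 (limma, adjusted p = 0.044), a call that held in 4 of the 12 fits that left out 1 library and was lost without the 3 libraries (adjusted p = 0.111). In PND2N it was -2.40 ± 0.64 and did not pass (adjusted p = 0.0606). The entry lies wholly inside another on the same strand, an undescribed gene that averaged 2577 ± 854 in PND2N, 3389 ± 1021 in PND2R and 1569 ± 617 in PND0. Since the share of reads given to each is unknown, the level of SLC5A3 is uncertain.

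SLC5A1 (SGLT1), the glucose carrier of the gut lining, stood at 2.42, 21.8, 105 and 25.9 in PND2N, 34.1, 3.54, 3.30 and 32.1 in PND2R and 118, 64.5, 27.8 and 22.5 in PND0. The lowest values again belonged to PND2N 1, PND2R 2 and PND2R 3, and no change passed (adjusted p = 0.497 in PND2N and 0.186 in PND2R). SLC5A10 (SGLT5), a mannose and fructose carrier best known from kidney, averaged 212 ± 43.1 in PND2N, 188 ± 46.9 in PND2R and 319 ± 118 in PND0, with no change past the threshold. SLC5A7, the choline carrier of nerve endings, only just met the rule for low values, with no value above 2.22. SLC5A8, a sodium-coupled monocarboxylate carrier, exceeded 1 in only 3 libraries.

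Carriers of glutamate and glutamine in the SLC1A family had 1 fall, in PND2R. SLC1A5 (ASCT2; chromosome 6, 47864578 to 47878606) brings glutamine into growing cells in exchange for other neutral amino acids. It stood at 317, 1309, 1263 and 507 in PND2N, 589.9, 427, 193 and 487 in PND2R and 849, 1127, 1315 and 1479 in PND0. All PND2R values were below all PND0 values, whereas PND2N 2 and PND2N 3 were at newborn levels. The log2 change was -1.57 ± 0.47 in PND2R (limma, adjusted p = 0.0435) and -0.70 ± 0.47 in PND2N (adjusted p = 0.358). PND2N exceeded PND2R by 0.87 ± 0.47, which did not pass (adjusted p = 1). The PND2R call held in 4 of the 12 fits that left out 1 library, and without the 3 libraries the change was -1.12 (adjusted p = 0.14). A gene on the opposite strand, LOC100514580, spans the whole of SLC1A5 at a mean of 6933 ± 1520.1 in PND2N, 6552 ± 1154 in PND2R and 9101 ± 616 in PND0. Whether strand was used in counting is not given, so reads of this pair may not have been told apart. SLC1A1 (EAAC1), a glutamate carrier, was 204 ± 70.7 in PND2N, 178 ± 10.3 in PND2R and 234 ± 165 in PND0, with 88.4, 95.5, 393 and 361 in the newborns. SLC1A7, a retinal glutamate carrier, did not exceed 7.11 in any library.

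The exchangers of the SLC3A and SLC7A families had no change past the threshold among 7 genes. SLC7A7, the light chain that sends arginine and lysine out of cells, stood at 893, 1276, 1166 and 1220.2 in PND2N, 931, 924, 859 and 911 in PND2R and 845, 836, 768 and 742 in PND0. Every day 2 library was above every newborn library, and it was the only one of the 47 transporters of which this was so (2.13%, where 6.67% of all genes stood higher in every day 2 library). The log2 change was 0.50 ± 0.15 in PND2N (limma, adjusted p = 0.0832), 0.18 ± 0.15 in PND2R and 0.34 ± 0.13 for day 2 (adjusted p = 0.082). The PND2N change passed only with no filter on low values (adjusted p = 0.0292). SLC7A7 is also known from macrophages, and summed leukocyte and macrophage markers (9 of 11 matched) ran from 11272 to 14083 in PND2N, 10123 to 14286 in PND2R and 5179 to 10786 in PND0. Single markers differed in direction. C1QB ran from 2553 to 3428 in PND2N, 2492 to 3914 in PND2R and 1170 to 2404 in PND0. CSF1R, in contrast, ran from 578 to 878 in PND2N, 498 to 635 in PND2R and 715 to 1356 in PND0. The part of macrophages in the SLC7A7 values was not tested.

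SLC3A2 (4F2hc, CD98), the heavy chain that SLC7A7 and other light chains need, stood at 2466, 1761, 1478 and 1996 in PND2N, 1608, 2395, 2340.2 and 1863 in PND2R and 2375, 3013, 1717 and 1799 in PND0, and the groups overlapped. SLC7A1 (CAT1), which takes up arginine and lysine, averaged 1655 ± 143 in PND2N, 1668 ± 351 in PND2R and 2131 ± 304 in PND0. Its log2 change was -0.36 ± 0.17 in PND2N and -0.37 ± 0.17 in PND2R, with a small error but short of the threshold (adjusted p = 0.231 and 0.146). SLC7A9, the cystine carrier light chain that pairs with SLC3A1, stood at 18.2, 28.8, 86.3 and 31.8 in PND2N, 70.1, 30.1, 10.996 and 49.7 in PND2R and 83.1, 159, 55.2 and 60.7 in PND0. Its mean was lower in both day 2 groups, but the groups overlapped and neither change passed (adjusted p = 0.247 in PND2N and 0.149 in PND2R). SLC7A3 has 14 other entries described as similar to it, so its own level is uncertain.

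None of 7 SLC38A genes passed. SLC38A1 (SNAT1), a sodium-coupled glutamine carrier, stood at 355, 312, 660.0 and 337 in PND2N, 824, 365, 396 and 710.1 in PND2R and 826, 402, 971 and 784 in PND0. Its change in PND2N was -0.84 ± 0.36 (limma, adjusted p = 0.186), and the groups overlapped. SLC38A4 (SNAT4), a carrier of neutral amino acids that is imprinted in mouse, stood at 1, 9.31, 26.9 and 3.35 in PND2N, 6.65, 1, 1.10 and 7.99 in PND2R and 23.0, 10.8, 28.5 and 17.2 in PND0. SLC38A6 stood at 29.3, 125, 167 and 72.3 in PND2N, 97.1, 21.3, 27.9 and 86.5 in PND2R and 200.3, 114, 148 and 113 in PND0. In PND2R the libraries of both genes were all below the newborns, with log2 changes of -2.26 ± 0.77 and -1.54 ± 0.60 that did not pass (adjusted p = 0.064 and 0.091). In both genes the 3 lowest of the 12 libraries were PND2N 1, PND2R 2 and PND2R 3, and without them the PND2R changes were -1.25 and -0.60 (adjusted p = 0.316 and 0.395). SLC38A7 and SLC38A9, both lysosomal and singled out after their values were seen, varied less, with a highest value 1.51 and 2.07 times the lowest. SLC38A9 reports lysosomal arginine to the growth kinase complex mTORC1.

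The proton-coupled SLC36A carriers, which export small amino acids from lysosomes or take them up, had no change past the threshold among 3 genes. SLC36A1 (PAT1) stood at 29.9, 151, 162 and 67.1 in PND2N, 96.5, 10.96, 8.11 and 85.7 in PND2R and 149.6, 111, 158 and 222 in PND0. PND2R 2 and PND2R 3 were by far the lowest, and the change in PND2R was -2.34 ± 0.80 (limma, adjusted p = 0.064). Without the 3 libraries it was -0.77 (adjusted p = 0.316). FAT2, on the opposite strand, overlaps SLC36A1 over 43345 bases. It averaged 692 ± 58.9 in PND2N, 615 ± 45.5 in PND2R and 532 ± 93.4 in PND0. Reads of this pair may not have been told apart. SLC36A4 (PAT4) stood at 48.1, 92.2, 133 and 70.8 in PND2N, 62.8, 46.4, 47.9 and 53.6 in PND2R and 66.3, 85.1, 322 and 350.4 in PND0. All PND2R libraries were below all newborns, yet PND0 3 and PND0 4 were several times above PND0 1 and PND0 2. Its change in PND2R was -1.59 ± 0.54 (adjusted p = 0.0632). SLC36A2 (PAT2) averaged 23.2 ± 7.43 in PND2N, 19.6 ± 7.33 in PND2R and 36.1 ± 38.1 in PND0, and the PND0 mean dropped to 19.7 without PND0 3.

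Of the SLC6A family 7 of 8 genes were tested, and 1 fell. SLC6A17 (NTT4; chromosome 4, 116235841 to 116267075) loads neutral amino acids into synaptic vesicles in the rodent brain. It stood at 2.42, 14.9, 20.2 and 5.85 in PND2N, 11.1, 1.77, 1 and 14.1 in PND2R and 28.7, 22.7, 92.0 and 96.8 in PND0. All day 2 libraries were below all newborns, PND2R 3 was at the lowest value of the table, and PND0 3 and PND0 4 were the highest. The log2 change was -3.16 ± 0.81 in PND2R (limma, adjusted p = 0.0264), -2.42 ± 0.81 in PND2N (adjusted p = 0.107) and -2.79 ± 0.70 for day 2 (adjusted p = 0.0219). Without the 3 libraries the day 2 change was -1.91 (adjusted p = 0.0565) and that of PND2R -1.90 (adjusted p = 0.158). The day 2 call was also lost without PND0 3 or PND0 4, at adjusted p of at most 0.0781. Summed neuron and glia markers (6 of 9 matched) ran the other way, with 3924 to 6570 in PND2N, 3713 to 7487 in PND2R and 1722 to 4372 in PND0.

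The other SLC6A carriers overlapped between groups. SLC6A8, the creatine carrier, stood at 3286, 2060.5, 2013 and 2729 in PND2N, 3100.2, 2708, 3644 and 3015 in PND2R and 4016, 4414, 2114 and 1885 in PND0, the newborns having both the highest and the lowest values. SLC6A20, an imino acid carrier, averaged 43.5 ± 11.9 in PND2N, 41.0 ± 13.5 in PND2R and 31.2 ± 10.7 in PND0. SLC6A14, a broad amino acid carrier of mucosal epithelium, was near the bottom of the scale, with 9.92 in PND2N 3 as its highest value. SLC6A19, the neutral amino acid carrier of gut and kidney, exceeded 1 in 1 library, PND0 4.

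None of the 3 fatty acid transport proteins passed. SLC27A1 (FATP1), the form of muscle and fat, stood at 1891, 1858, 1545 and 2124 in PND2N, 1781, 1713, 1734 and 1977 in PND2R and 2026, 2092, 1897 and 2187 in PND0. Its highest value was 1.42 times its lowest, the smallest such ratio among the 47, and its log2 change was -0.15 ± 0.13 in PND2N and -0.19 ± 0.13 in PND2R. SLC27A4 (FATP4), which serves fat uptake and the skin barrier, stood at 2603, 1533, 1414 and 2007 in PND2N, 1506, 2145, 2271 and 1643 in PND2R and 1683, 1889, 874 and 904 in PND0. PND0 3 and PND0 4 were below every other library, and the change was 0.54 ± 0.29 in PND2N and 0.56 ± 0.29 in PND2R (adjusted p = 0.266 and 0.172). SLC27A3 (FATP3) averaged 1879 ± 584 in PND2N, 2018 ± 615 in PND2R and 1708 ± 143 in PND0.

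Nursing against milk replacer at the same age gave no call among the 47 transporters, where 2 of all genes (0.0119%) passed. None had an unadjusted p under 0.05 either, where 2.68% of all genes did, and no transporter had PND2N and PND2R libraries that did not overlap (2.55% of all genes). The smallest unadjusted p was 0.0571, for SLC7A7. The SLC7A7 difference was 0.32 ± 0.15 on the log2 scale, with PND2N 1 inside the PND2R range. Next by p came SLC5A3 at -1.21 ± 0.64, SLC1A5 at 0.87 ± 0.47, SLC36A1 at 1.46 ± 0.80 (0.37 without the 3 libraries) and SLC2A1 at -0.51 ± 0.28, all with an adjusted p of 1 in limma. The SE of this difference was 0.13 for SLC27A1 and 1.21 for SLC2A3, the smallest and the largest of the 47. A difference of 1 on the log2 scale was thus smaller than the error of SLC2A3 and several times that of SLC27A1. A p short of the threshold does not show that the feeds gave equal levels.

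Libraries of the same group differed widely for some transporters. With 1 library per gilt, differences between animals and between libraries cannot be told apart. PND2N 1, PND2R 2 and PND2R 3 were the 3 lowest of the 12 libraries in 9 of 47 transporters (19.1%, where the share of all genes was 21.2%): SLC38A6, SLC3A1, SLC6A17, SLC2A3, SLC38A4, SLC1A5, SLC36A4, SLC5A1 and SLC36A1. They were the 3 highest in 5 (10.6%, where the share of all genes was 15.8%): SLC27A4, SLC2A6, SLC27A3, SLC2A1 and SLC38A3. Without these 3 libraries, 1 transporter fell in PND2N (1.63% of all genes were called), none in PND2R (1.51% of all genes were called) and 2, SLC2A13 and SLC16A3, for day 2 (8.41% of all genes). Among newborns, PND0 3 and PND0 4 were both above PND0 1 and PND0 2 in 20 of 47 (42.6%, where the share of all genes was 33.6%) and both below them in 10 (21.3%, where it was 34.4%). SLC6A17, SLC5A3, SLC2A3 and SLC36A4 were among the 20, and SLC16A3 among the 10.

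**Figure D4:**
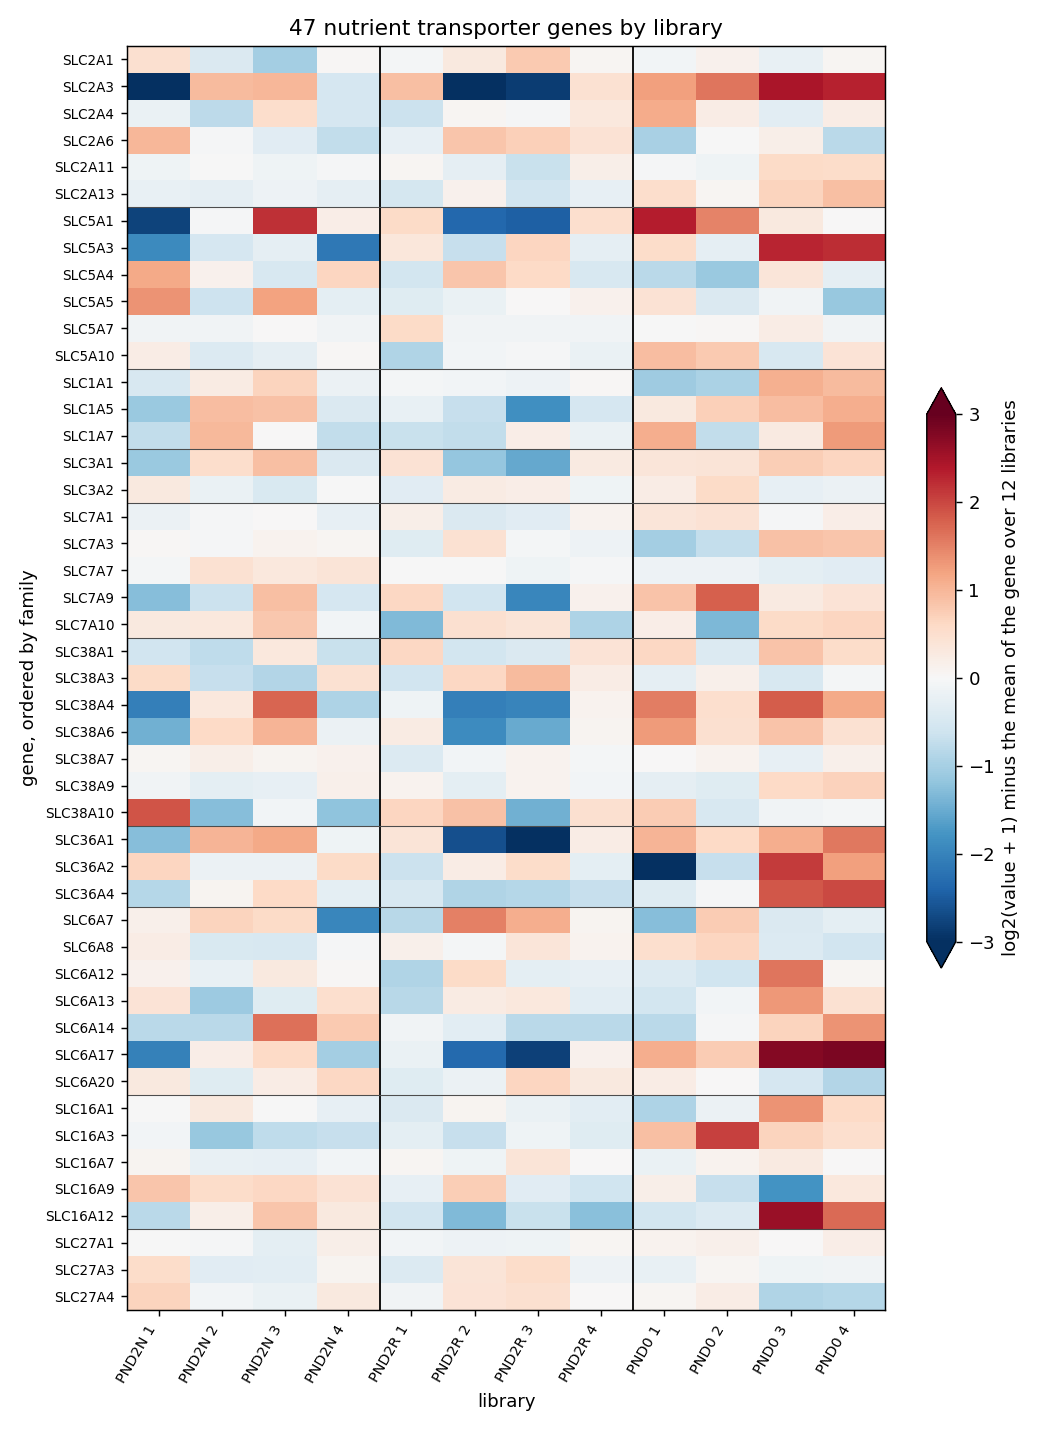
Log2(value + 1) of the 47 transporters in each library minus the gene's mean over the 12 libraries, by family and group. The colour scale ends at -3 and 3. Columns PND2N 1, PND2R 2 and PND2R 3 are blue in SLC2A3, SLC5A1, SLC38A4, SLC36A1 and SLC6A17, PND0 3 and PND0 4 are red in SLC2A3, SLC5A3 and SLC6A17, and SLC16A3 is red in all 4 PND0 columns.

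Further genes of the same families are listed in the table under placeholder names. A later gene table gives 29 of them a symbol of these families, and 26 were tested. None changed in PND2N, 4 of 26 in PND2R (15.4%, against 15.0% of all genes) and 5 of 26 for day 2 (19.2%, against 18.1%). SLC16A5 (MCT6; mean 94.6 ± 20.9 in PND2N, 55.2 ± 8.96 in PND2R and 135 ± 23.6 in PND0) fell by 1.27 in PND2R (SE 0.28, limma adjusted p = 0.017). SLC6A4, the serotonin carrier (mean 28.2 ± 9.71 in PND2N, 15.5 ± 6.77 in PND2R and 74.6 ± 35.9 in PND0), fell by 2.13 in PND2R (adjusted p = 0.0215), and SLC5A9 (SGLT4; mean 15.5 ± 4.16 in PND2N, 10.7 ± 8.44 in PND2R and 40.4 ± 8.35 in PND0) by 2.16 (adjusted p = 0.0237). SLC16A13 (mean 566 ± 163 in PND2N, 608 ± 127 in PND2R and 329.7 ± 102 in PND0) rose by 0.91 in PND2R (adjusted p = 0.0486). These 4 PND2R calls were all lost without the 3 libraries, at adjusted p of 0.0854 to 0.242. The day 2 call of SLC5A9 held without the 3 (adjusted p = 0.0382), and those of SLC16A5, SLC6A4 and SLC16A13 were lost (adjusted p of 0.0554 to 0.12).

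SLC38A2 (SNAT2), the amino acid carrier that cells induce when amino acids run short, is also among the placeholders. It stood at 445, 4247, 5075 and 2233 in PND2N, 4011, 575, 538 and 3376 in PND2R and 3709.9, 3978, 6349.9 and 6349 in PND0. The 3 libraries that stood apart were below all of the other 9, and its change did not pass in PND2N or PND2R (adjusted p = 0.363 and 0.131). SLC43A2, a carrier of large neutral amino acids and the one SLC43A gene found, stood at 513, 388, 360.0 and 448 in PND2N, 218, 345, 273 and 287 in PND2R and 342, 311, 284 and 385 in PND0. All PND2N libraries were above all PND2R libraries, a log2 difference of 0.61 ± 0.22 with an unadjusted p of 0.0146 and an adjusted p of 1. Of the 26 placeholders, 3 did not overlap between the feeds (11.5%, where the share of all genes was 2.55%). SLC43A2 and SLC16A5 were the 2 higher in PND2N, and 1 other was lower. SLC16A5 ranged from 76.4 to 118 in PND2N and from 42.1 to 62.0 in PND2R, a log2 difference of 0.75. None of the 26 was called between the feeds. Some neighbouring entries carry the description of a tested transporter without its symbol. LOC100156854, similar to MCT1, fell by 1.90 in PND2R (adjusted p = 0.0101), and LOC100157499, similar to SLC38A6, rose by 0.80 (adjusted p = 0.0355). Both PND2R calls were lost without the 3 libraries (adjusted p = 0.0668 and 0.228). For day 2, the call of LOC100156854 (-1.51, adjusted p = 0.00954) held without the 3 (adjusted p = 0.0329), and that of LOC100157499 was lost (adjusted p = 0.0855).

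Genes that work with these carriers were counted in lists. Of all genes tested, 1.91% rose and 1.41% fell in PND2N, and 7.7% rose and 7.31% fell in PND2R. For day 2, 9.57% of all genes rose and 8.49% fell. Of 16 entries for enzymes of the first steps of hexose, lactate and glutamine use, 1 rose in PND2N, 2 in PND2R and 3 for day 2, where 1 fell. LDHA, the subunit of lactate dehydrogenase that favours lactate formation, stood at 6063, 5442, 7490.3 and 5274 in PND2N, 8001, 5668, 5279.7 and 7188 in PND2R and 10444, 14648, 9576 and 7037 in PND0. It fell by 0.70 for day 2 (SE 0.19, limma adjusted p = 0.0291), although PND2N 3, PND2R 1 and PND2R 4 overlapped PND0 4, and the call was lost without the 3 libraries (adjusted p = 0.106). LDHB, the subunit that favours lactate use, stood at 8437, 6443, 5098 and 7912 in PND2N, 6994, 8395, 9259 and 7276 in PND2R and 4108, 4259.8, 4365 and 3549 in PND0. Every day 2 library was above every newborn. It rose by 0.75 in PND2N (adjusted p = 0.0363), by 0.97 in PND2R (adjusted p = 0.00857) and by 0.86 for day 2 (adjusted p = 0.00594), but a second entry described as similar to LDHB, on another chromosome, did not pass (-0.13 ± 0.15 for day 2). Without the 3 libraries the LDHB calls in PND2N and PND2R were lost (adjusted p = 0.068 and 0.0631) and that for day 2 held (adjusted p = 0.0222). The PND2N call held in 3 of the 12 fits that left out 1 library. SORD, which turns sorbitol into fructose, rose by 0.62 and GCKR, the glucokinase regulator, by 1.04 for day 2 (adjusted p = 0.0339 and 0.047). These calls held in 5 and 2 of the 12 such fits, and both were lost without the 3 libraries (adjusted p = 0.115 and 0.0863).

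Of 14 entries for partner and trafficking proteins, 1 fell in PND2N and 2 fell in PND2R, where 1.41% and 7.31% of all genes fell. For day 2, 1 rose and 1 fell, where 9.57% of all genes rose and 8.49% fell. VAMP2, a vesicle protein needed to bring GLUT4 to the cell surface, stood at 105, 96.986, 126 and 100.4 in PND2N, 72.0, 98.3, 107 and 114 in PND2R and 254, 327, 442 and 347 in PND0. All day 2 libraries were far below all newborns. It fell by 1.65 in PND2N (adjusted p = 0.0145), by 1.79 in PND2R (adjusted p = 0.00487) and by 1.72 for day 2 (adjusted p = 0.00245). All 3 calls held without the 3 libraries, and the PND2N call was lost without PND2N 4 or PND0 4. TXNIP, which draws GLUT1 and GLUT4 off the cell surface, fell by 0.49 in PND2R (adjusted p = 0.0495), a call that held in 2 of the 12 fits that left out 1 library and was lost without the 3 (adjusted p = 0.247). TBC1D1, which holds GLUT4 vesicles back, had 2 entries, of which LOC100524447 rose by 0.59 for day 2 (adjusted p = 0.0488) and the other gave -1.66 ± 0.84 (adjusted p = 0.165). The LOC100524447 call held in 3 of 12 fits and was lost without the 3 libraries (0.46, adjusted p = 0.171). Of all genes, 1.91% rose in PND2N, 7.7% in PND2R and 9.57% for day 2. Of 10 sodium pump genes, ATP1B3, a beta subunit, alone rose. It stood at 4262, 2849.8, 2679 and 3311 in PND2N, 2842, 3491, 4169 and 3022 in PND2R and 1430.2, 2175, 1725 and 1361 in PND0, without overlap, and rose by 0.97 in PND2N (adjusted p = 0.0295) and by 1.02 in PND2R (adjusted p = 0.0125). Both calls were lost without the 3 libraries (adjusted p = 0.0545 and 0.0745), and the PND2N call held in 5 of the 12 fits that left out 1 library. For day 2 as a whole ATP1B3 rose by 1.00 (adjusted p = 0.0061), a call that held without the 3 (adjusted p = 0.0214).

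Of 23 genes of amino acid sensing and the response to amino acid shortage, 1 fell in PND2N, where 1.41% of all genes fell. In PND2R 6 rose and 1 fell, where 7.7% of all genes rose and 7.31% fell. For day 2, 8 rose and 1 fell, where 9.57% of all genes rose and 8.49% fell. The median log2 change of the list for day 2 was 0.30, where that of all genes was -0.05. SESN2, a leucine sensor that is induced by amino acid shortage and other stress, averaged 227 ± 17.963 in PND2N, 316 ± 100.3 in PND2R and 122 ± 32.4 in PND0 and rose by 1.36 in PND2R (limma adjusted p = 0.0161). LAMTOR2, part of the lysosomal anchor of mTORC1, averaged 2359 ± 1023 in PND2N, 2758 ± 777 in PND2R and 1047 ± 374 in PND0 and rose by 1.43 in PND2R (adjusted p = 0.0208). ASNS, asparagine synthetase, averaged 1048 ± 129.9 in PND2N, 1198 ± 246 in PND2R and 718 ± 25.7 in PND0 and rose by 0.72 in PND2R (adjusted p = 0.023). RPTOR, the mTORC1 scaffold, fell in each comparison, by 0.53 in PND2N (adjusted p = 0.0497), by 0.60 in PND2R (adjusted p = 0.0177) and by 0.57 for day 2 (adjusted p = 0.0104). The RPTOR call in PND2N held in 1 of the 12 fits that left out 1 library and was lost without the 3 (adjusted p = 0.0676). Without the 3 libraries the PND2R calls of SESN2, LAMTOR2, ASNS and RPTOR were lost, at adjusted p of 0.0777 to 0.165. The day 2 calls of SESN2, LAMTOR2 and RPTOR held without them (adjusted p = 0.0431, 0.0432 and 0.0254), and that of ASNS was lost (adjusted p = 0.0615).

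Of 13 genes of fatty acid uptake and activation, none changed in PND2N, where 3.32% of all genes did. In PND2R 1 rose and 1 fell, where 7.7% of all genes rose and 7.31% fell. For day 2, 2 rose and 1 fell, where 9.57% of all genes rose and 8.49% fell. LPL, the lipase that frees fatty acids from circulating fat, stood at 48.7, 191, 174 and 85.5 in PND2N, 73.7, 24.1, 15.5 and 75.4 in PND2R and 325, 380.3, 433 and 610.4 in PND0. All day 2 values were below all newborn values, and the lowest were in PND2R 2 and PND2R 3. It fell in PND2R and for day 2, with log2 changes of -3.44 ± 0.57 (limma, adjusted p = 0.00724) and -2.70 ± 0.49 (adjusted p = 0.00698), and both calls held without the 3 libraries. In PND2N the change was -1.96 ± 0.57 and did not pass (adjusted p = 0.0745), but it passed without the 3 libraries, at -1.58 (adjusted p = 0.0496). DBI, which binds acyl-coenzyme A in the cell, rose by 1.13 in PND2R (adjusted p = 0.0264), and FABP3, the fatty acid binding protein of heart and muscle, by 0.86 for day 2 (adjusted p = 0.0397). Both calls were lost without the 3 libraries (adjusted p = 0.143 and 0.128), and they held in 8 and 5 of the 12 fits that left out 1 library. CD36, a fatty acid receptor of fat, muscle and small vessels, averaged 293 ± 106 in PND2N, 97.3 ± 21.4 in PND2R and 264 ± 167 in PND0 and did not pass (adjusted p = 0.0763 in PND2R). Its PND2N libraries (166 to 383) were all above its PND2R libraries (76.1 to 119), where 2.55% of all genes did not overlap. Between the feeds, 2 of the 13 genes had an unadjusted limma p under 0.05, where 2.68% of all genes did. So had 2 of the 14 partner and trafficking entries and 0 in the other lists, and no list gene was called.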

How the data were processed

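Uterine RNA of 12 gilts was sequenced. Per the labels' protocols, RNA was isolated with a column kit and libraries were made with a kit for messenger RNA. The submitters' processing notes name bcl2fastq and the build Sscrofa10.2. How reads were aligned, counted (and whether by strand) and normalized is not given in the sources used here. The authors deposited 1 signal per gene and library, a normalized linear value of at least 1. Of the low values 36.2% to 44.2% were whole multiples (within 0.02) of the most frequent one, so no reads were recovered, no count test was run and no counting interval is given. All value columns were matched to libraries by the library number in the labels (0 left over), and replicate numbers follow the order of the labels.

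Here log2(value + 1) of genes above 1 in at least 4 of 12 libraries was fitted in limma 3.58.1 (R 4.3.3, statmod 1.5.0; trended, robust empirical Bayes, all 12 libraries, no covariate), which was tested on simulated data. Contrasts were two-sided, and p was adjusted by Benjamini-Hochberg over 16862 genes with a threshold of 0.05. Tables were made with pandas 2.3.3 and numpy 2.4.6 in Python 3.11.15, figures with matplotlib 3.10.9. The settings tried were an added value of 0.1 or 5, no filter, a filter at 10, TMM scaling, quantile normalization, only the groups compared, plain empirical Bayes, each library left out, and PND2N 1, PND2R 2 and PND2R 3 left out together.

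Positions are those of the table. Later symbols for placeholder entries came from an NCBI gene table (Sscrofa11.1), used for names only. One gene among them is counted but not reported by itself here. Of the transporters, 8 overlap another entry: SLC1A5, SLC3A1, SLC5A3, SLC5A5, SLC5A10, SLC6A20, SLC27A3 and SLC36A1. How reads were shared there is unknown, so their levels are uncertain. Values are given for 32 transporters chosen by rule: those called in any contrast, the 3 with the smallest F test p in each family group, a panel of 17 well-studied carriers (13 among the 47), and the 5 with the smallest p between PND2N and PND2R. Of each list of related genes, up to 4 with the smallest F test p are named. Of 88 genes in these lists 75 were matched, and of 81 cell type markers 60. The uterine markers, the neighbouring entries and the transporters described for their spread were picked once their values were known. The transporters, lists and tests were chosen with earlier results of these data known.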

Additional observations from a re-analysis of the deposited data

How the results depend on the processing

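Counts of transporters called were 1 in PND2N against PND0, 4 in PND2R against PND0, 4 for day 2 against PND0 and 0 in PND2N against PND2R. In PND2N against PND0 the count was 2 with no filter on low values (SLC7A7 was added) and 0 when the fit held the PND2N and PND0 libraries alone. Leaving out 1 library gave 0 to 2. It was 0 without PND2N 2, PND2N 4, PND0 1 or PND0 4. In PND2R against PND0 it was 2 with no filter and 0 without PND2N 1, PND2R 2 and PND2R 3 together. Leaving out 1 library gave 0 to 9: 9 without PND2N 1, 2 without PND2N 4, 1 without PND0 3 or PND0 4, and 0 without PND2R 2 or PND2R 3. For day 2 it was 2 under quantile normalization and 2 without the 3 libraries. Leaving out 1 library gave 1 to 6. It was 2 without PND2N 4 or PND2R 3 and 1 without PND0 3 or PND0 4. In PND2N against PND2R it was 0 under every setting run. The count of transporters past an unadjusted p of 0.05 was 0 in the main limma fit of that comparison and was not taken under the other settings. The share of all genes called moved as well. Without the 3 libraries it went from 3.32% to 1.63% in PND2N and from 15.0% to 1.51% in PND2R, each against PND0. For day 2 it went from 18.1% to 8.41%. Shares of all genes in the other fits are not given here, so these counts are not read as a trait of the transporters. No called direction reversed in any setting run. Among log2 changes of single named genes, 1918 values kept their side of the threshold, 277 lost a call and 34 gained one. The cause of these differences was not tested. Genes near 1 are limited by depth, and 4 transporters had a mean under 10 in all 3 groups. No paired analysis was possible because the labels give no replicate numbers, so numbers shared between groups only name libraries.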
